A study of Homo sapiens with 12 samples.

Results

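A set of 9 genes of the p53 axis and the BCL2 family, of the 20050 protein-coding genes of the annotation, was examined in lists of N4-acetylcytidine (ac4C) peaks: TP53BP1, MDM2, MDM4, CDKN1A, BAX, BID, BBC3, BCL2L1 and MCL1. They were chosen by name, with earlier results of these data known. A peak counted for a gene when it overlapped the gene's RefSeq span in hg38 by at least 1 bp. The cells were RBE, a human intrahepatic cholangiocarcinoma line. One arm (sh-NAT10) carried a lentiviral short hairpin against NAT10, the enzyme that acetylates cytidine in RNA, and was kept as a stable line by puromycin selection. The other arm (sh-NC) carried a control hairpin. RNA was fragmented and pulled down with an ac4C antibody, and each arm had 3 immunoprecipitates and 3 inputs, 12 libraries in all.

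The authors deposited 1 peak list per arm, with 28047 peaks in the knockdown list and 34365 in the control list (81.6% as many in the knockdown list). No list separates the replicates, so no difference below has a replicate check and no p-value is given. Read depth is unknown, and RNA level is not part of the lists, so fewer acetylated sites, less RNA and fewer reads cannot be told apart. The name of the control list fits only the sh-NC titles, and the other list was taken as that of the knockdown. NAT10 had 5 peaks in both lists, which measures neither its RNA nor its protein and so does not check the labels. Of the cholangiocyte markers, KRT7 had 10 knockdown and 11 control peaks, KRT19 had 4 and 5, SOX9 had 6 and 5, and EPCAM had 0 in both lists.

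The p53 protein is a transcription factor that halts the cell cycle or starts cell death after DNA damage. MDM2 and MDM4 bind and restrain it, and MDM2 is itself a p53 target, which closes a feedback loop. CDKN1A, BAX and BBC3 are classic p53 targets. BCL2 family proteins decide whether the outer mitochondrial membrane opens: BAX forms the pore, BID and BBC3 push towards it, and BCL2L1 and MCL1 hold it shut.

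The 9 genes carried 27 knockdown peaks and 26 control peaks. All 9 had a control peak, as did 9449 of the 10915 protein-coding genes that either list covers. Peaks in both lists were on 8 of the 9, against 63.8% of those 10915 genes. The 9 genes were chosen with earlier results known, so how many of them carry peaks is not a result about them. Of the 9 genes, 4 had more knockdown than control peaks, namely TP53BP1, MDM2, CDKN1A and BBC3. Among those protein-coding genes the share was 33.3%. BAX, BID and MCL1 (3 of 9) had fewer knockdown peaks, against 46.1% of those genes. MDM4 and BCL2L1 (2 of 9) had equal numbers, against 20.6%. With so few genes, nothing particular to them was read from these counts. Peaks of a list that a short gap separates were counted separately, as on CDKN1A, TP53BP1, BBC3, MDM2 and BCL2L1. On CDKN1A the extra knockdown peak is such a neighbour, and joining it to the shared peak would give equal numbers.

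**Figure D1:**
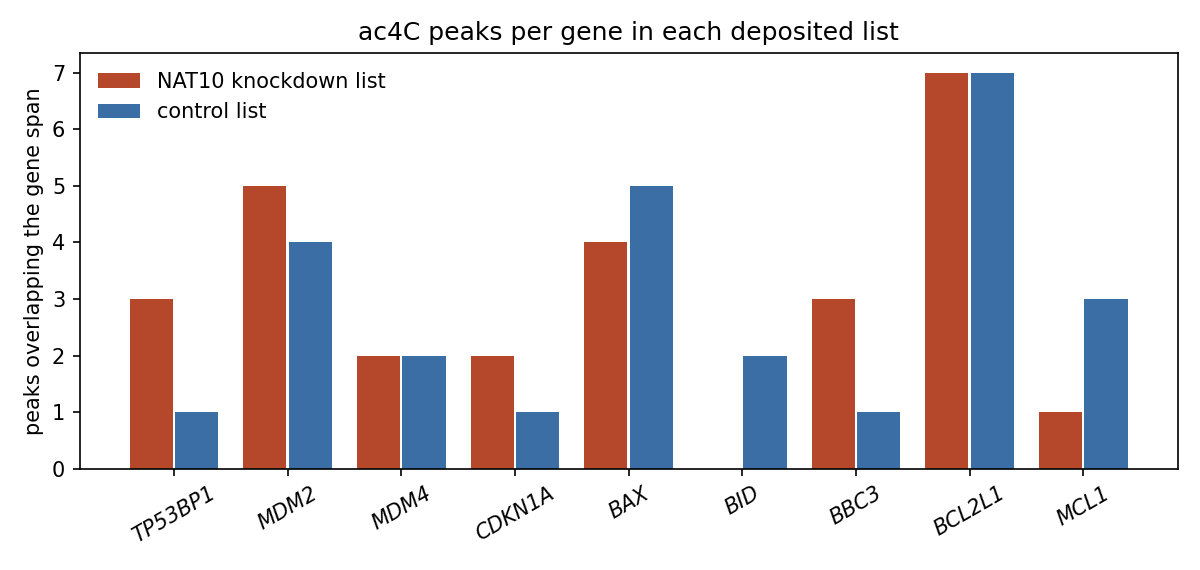
Number of peaks that overlap each gene span (y axis) for the 9 genes, knockdown list in red and control list in blue, 1 list per arm and therefore no error bars. BID has 0 knockdown and 2 control peaks, BCL2L1 has 7 in both lists, and TP53BP1 and BBC3 have 3 knockdown and 1 control peak each.

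MDM2, the ubiquitin ligase that marks p53 for destruction (chromosome 12, 68808172 to 68850686, plus strand), is transcribed from an outer promoter and from an inner one that p53 itself drives. RefSeq promoter windows (GRCh38.p14, 250 bases before a transcript start to 50 after it) were available for both. Peaks of both lists began just after the inner start, and the windows of the inner start, which RefSeq gives at 68809017 and 68809024, were the only windows of the genes that a peak on their strand reached. Both MDM2 windows are shown because they separate the start that carries a peak from the one that does not. Capitals mark the bases of the inner window that lie under a control peak.

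MDM2 inner start, chr12:68808774-68809073, plus strand: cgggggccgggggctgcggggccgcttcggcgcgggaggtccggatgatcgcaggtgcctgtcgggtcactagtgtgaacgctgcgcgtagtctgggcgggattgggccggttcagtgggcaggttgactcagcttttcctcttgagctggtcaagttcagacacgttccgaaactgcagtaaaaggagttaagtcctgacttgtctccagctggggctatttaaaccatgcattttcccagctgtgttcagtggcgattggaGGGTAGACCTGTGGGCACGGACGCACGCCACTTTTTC

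MDM2 outer start, chr12:68807922-68808221, plus strand: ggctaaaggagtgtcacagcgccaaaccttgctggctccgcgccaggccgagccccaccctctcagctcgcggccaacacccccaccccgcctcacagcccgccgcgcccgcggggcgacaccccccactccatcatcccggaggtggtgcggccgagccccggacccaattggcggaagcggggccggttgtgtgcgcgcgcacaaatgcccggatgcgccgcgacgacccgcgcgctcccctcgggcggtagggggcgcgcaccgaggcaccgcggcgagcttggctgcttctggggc

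The knockdown peak near the inner start ran from 68809062 to 68809282 (221 bp, score 10.90), and the control peak ran from 68809037 to 68809086 (50 bp, score 13.79). Their first bases lay 38 and 13 bases after the transcript start at 68809024, and the peaks shared 25 bp. The knockdown peak covered 12 bases of the inner window and the control peak 37, the capitals above. Scores are the authors' own, with no stated scale, and rank peaks only within a list. The knockdown peak outscored 22.6% of its list and the control peak 67.2% of its own.

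The inner window held 2 adjacent copies of the p53 half-site with at most 1 mismatch each, starting 101 bases before the transcript start and so outside both peaks. A pair of this kind was found in 0.389% of 34943 promoter windows of the same length, searched on both strands, and in no window of the other genes that had one. The p53 half-site without mismatch was in 0 of the 16 member windows, against 6.64% of all windows. Sites outside the windows were not searched, so these matches do not show which genes lack a p53 site. Neither p53 pattern was among the motifs planned beforehand for the windows. A run of 4 CNN triplets (C followed by any 2 bases, searched on the strand of the gene) has been linked to ac4C. It occurred in 14 of the 16 member windows and in 74.9% of all windows. MDM2 and BID have several windows that overlap each other, so the 14 counts some runs repeatedly and does not show enrichment. By gene, windows of BAX, BCL2L1, BID, CDKN1A, MDM2 and TP53BP1 held a run and those of MDM4 and BBC3 did not. In the inner MDM2 window the run spans bases 22 to 33, before the transcript start and away from the peak bases. These matches describe letters only. MCL1 had no promoter window.

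Further along MDM2 both lists held a wide peak from the same first base, 68836740, to 68839388 in the knockdown list (2649 bp, score 14.24) and to 68839288 in the control list (2549 bp, score 10.87). Another shared place was a 50 bp peak, from 68840589 to 68840638 in the knockdown list (score 10.46) and from 68840564 to 68840613 in the control list (score 10.30). In all, 3 of 5 knockdown peaks overlapped 3 of 4 control peaks. The 2 knockdown peaks without a counterpart were 25 and 100 bp wide. The 25 bp peak ended at the base directly before a control peak, with no base between them. The 100 bp peak (68840889 to 68840988) had the top score on the gene in that list, 15.42. The control peak without a counterpart was 25 bp wide and ended 26 bp before the wide peak. The extra knockdown peaks on MDM2 thus lay within 276 bp of a control peak.

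MDM4, the MDM2 relative that masks the activating part of p53 (chromosome 1, 204516406 to 204558120, plus strand), had 2 peaks in both lists. One was the same in both, from 204530815 to 204532262 (1448 bp), with a score of 12.99 in the knockdown list and 11.53 in the control list. The other knockdown peak was 25 bp wide, lay on the minus strand inside the pseudogene LOC100291628 and scored 10.51, close to the sharp lower edge of the scores at 10. The other control peak lay from 204549113 to 204549262 on the strand of the gene (150 bp, score 14.86), and the nearest knockdown peak on that strand was 16851 bp away. Counting only the strand of the gene, MDM4 had 1 knockdown and 2 control peaks.

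TP53BP1, a DNA break repair protein named for binding p53 (chromosome 15, 43403061 to 43510640, minus strand), had 3 knockdown peaks and 1 control peak, and none of them overlapped. The 3 knockdown peaks lay on the strand of the gene. The highest, from 43409091 to 43409715 (625 bp), had a score of 30.39, above 93.3% of its list. The others were a 4706 bp span from 43469969 to 43474674 (score 11.79) and a 25 bp peak beside it (score 10.35). The nearest control peak on the minus strand lay 110200 bp from them.

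The single control peak of TP53BP1 ran from 43407326 to 43407400 on the opposite strand (75 bp, score 11.91). It also lies in the span of TUBGCP4, a gamma-tubulin complex gene that overlaps the end of TP53BP1, as does the highest knockdown peak. Strand for strand, TP53BP1 therefore had 3 knockdown peaks and 0 control peaks, and 2 and 0 once peaks inside a further gene were left out. Counting either strand, as for its 3 and 1, 3 or more knockdown peaks were found on 9.25% of the 3352 protein-coding genes with exactly 1 control peak.

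CDKN1A encodes p21, the inhibitor of cyclin-dependent kinases through which p53 halts the cell cycle (chromosome 6, 36676463 to 36687332, plus strand). It had 2 knockdown peaks and 1 control peak. A 1329 bp peak from 36684438 to 36685766 had identical bounds in both lists, with a score of 19.42 in the knockdown list, above 84.0% of that list, and 17.78 in the control list, above 83.8% of that one. The second knockdown peak, 25 bp wide from 36685792 to 36685816 (score 13.01), lay 26 bp beyond the shared one. Apart from this short addition, the CDKN1A peaks were at the same place in both lists.

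**Figure D2:**
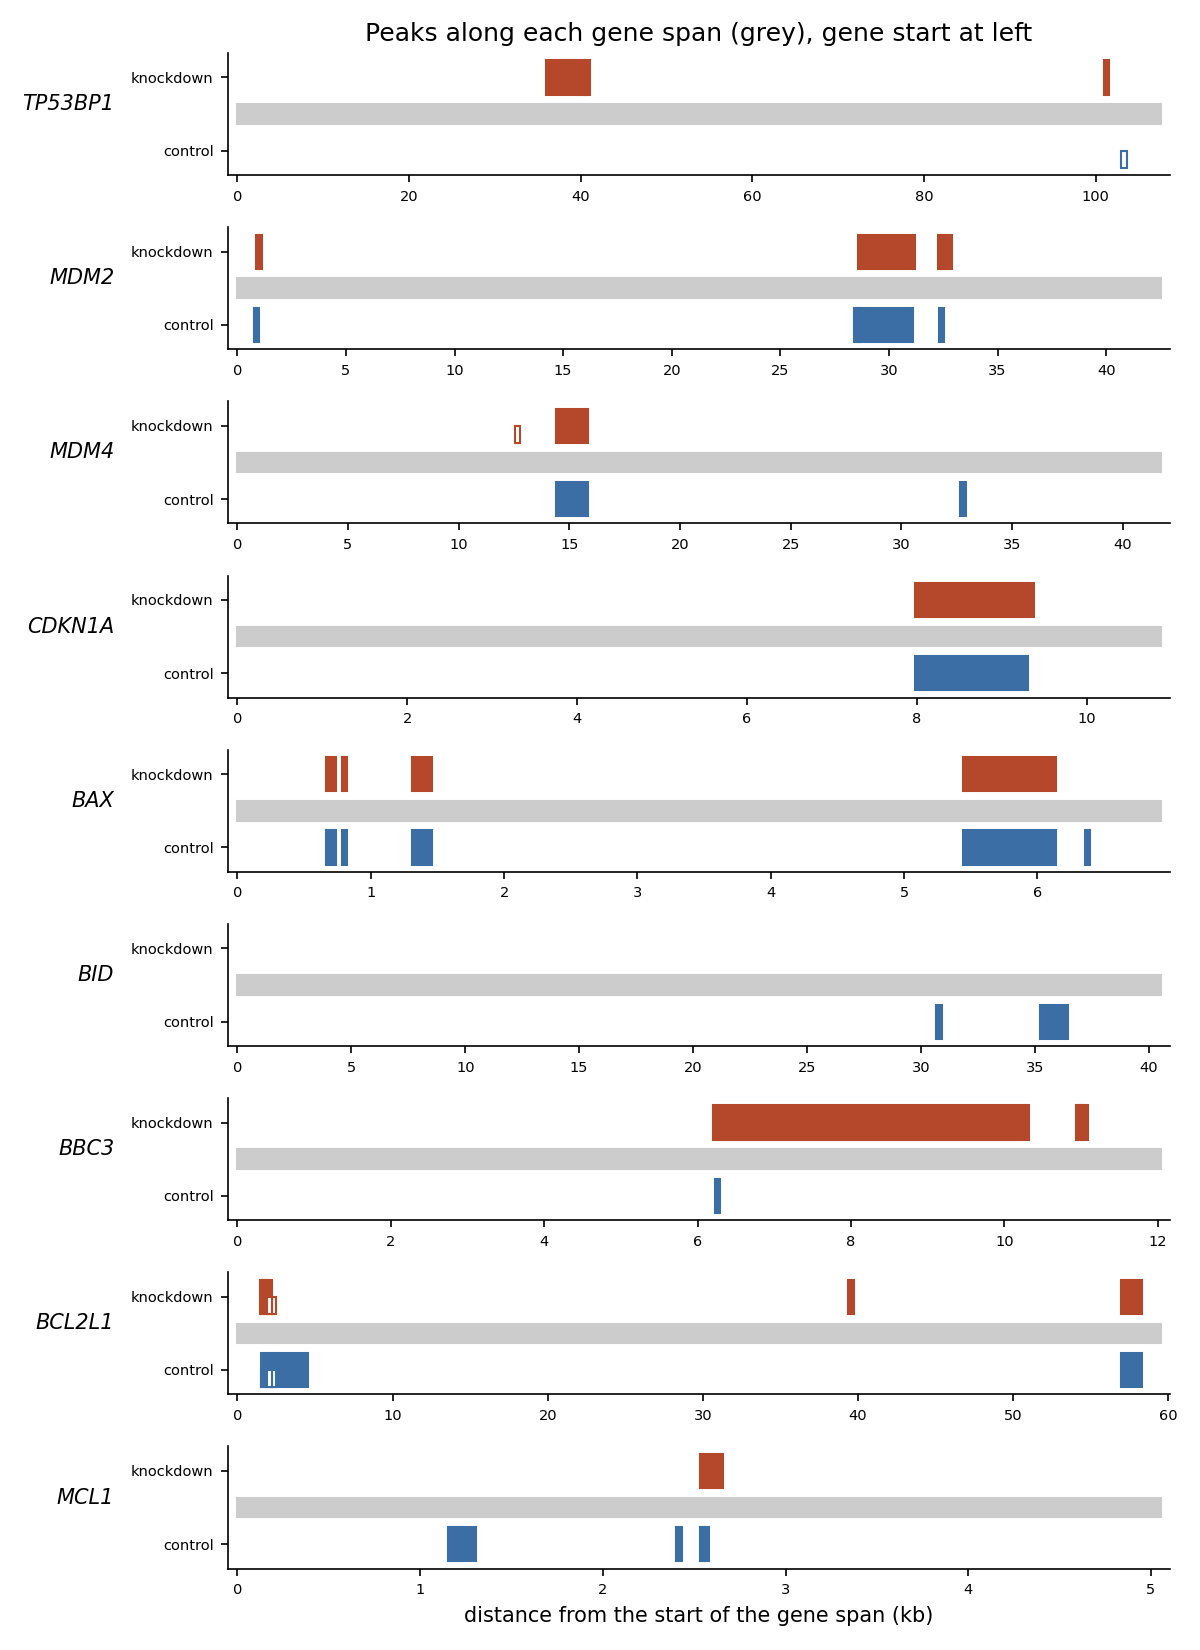
Peaks along each gene (x axis, distance from the start of the gene span in kb, a different scale in each panel), with the knockdown list above the grey gene span and the control list below it. Filled boxes are peaks on the strand of the gene and low open boxes those on the opposite strand, peaks narrower than 0.6% of the span are drawn at that width, and the MCL1 direction is that of its peaks. All 4 BAX knockdown peaks and 1 of the 2 on CDKN1A stand at the places of control peaks, BAX has 1 further control peak, and no TP53BP1 peak of one list overlaps one of the other.

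BAX, the pore former of apoptosis (chromosome 19, 48954875 to 48961798, plus strand), had 4 knockdown and 5 control peaks. Each of the 4 knockdown peaks had a control peak with the same first and last base. Over the 9 genes 7 knockdown peaks had identical bounds in the control list, and 4 of these 7 were on BAX. Among all protein-coding genes 18.6% of knockdown peaks and 15.3% of control peaks had identical bounds in the other list.

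The order of the BAX scores differed between the lists. In the knockdown list the highest, 53.42, belonged to a 150 bp peak at 48956184 to 48956333, and the next, 16.86, to a 75 bp peak at 48955540 to 48955614. In the control list these 2 peaks scored 26.49 and 41.15, so the peak nearer the gene start ranked first there. The 53.42 was above 97.7% of the knockdown list and the 41.15 above 97.2% of the control list, the highest score on the 9 genes in each. The remaining shared peaks were 25 bp wide (scores 11.53 and 12.37, knockdown and control) and 698 bp wide (13.79 and 12.57). The control peak without a counterpart was a 25 bp peak from 48961237 to 48961261 (score 12.95), 226 bp past the 698 bp peak.

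BID, the BH3-only protein that caspases cleave to link death receptors to mitochondria (chromosome 22, 17734138 to 17774665, minus strand), had 0 knockdown peaks and 2 control peaks. It was the 1 of 9 genes with a control peak and no knockdown peak, against 26.3% of 9449 protein-coding genes with a control peak. Of the 1837 genes with exactly 2 control peaks, 25.5% had no knockdown peak. Both control peaks were on the strand of the gene and overlapped no other gene. The larger ran from 17738213 to 17739456 (1244 bp, score 22.27, above 90.3% of the control list) and the smaller from 17743815 to 17743914 (100 bp, score 13.45). The nearest knockdown peak on that strand lay 44760 bp from the smaller one. A gene without peaks in a list is below that list's unstated threshold, which does not show that its RNA carried no ac4C.

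BBC3, known as PUMA, a BH3-only protein that p53 induces (chromosome 19, 47220824 to 47232860, minus strand), had 3 knockdown peaks and 1 control peak. The control peak was 25 bp wide, from 47226592 to 47226616, and its score of 10.39 was near the edge at 10. It lay wholly inside a 4120 bp knockdown peak from 47222547 to 47226666 (score 10.72). The other knockdown peaks, 75 bp (score 13.32) and 25 bp wide (score 11.09), lay towards the gene end, 4671 and 4771 bp from the control peak. When both lists were held to the same number of peaks by score, BBC3 kept 3 knockdown peaks and had 0 control peaks.

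BCL2L1, which gives the survival protein BCL-XL and its shorter opposite BCL-XS (chromosome 20, 31664452 to 31723963, minus strand), had 7 peaks in both lists, the most of the 9 genes. Of these, 6 knockdown peaks overlapped 5 control peaks. A peak near the gene end was shared, from 31665652 to 31667005 in the knockdown list (1354 bp, score 13.11) and from 31665677 to 31667005 in the control list (1329 bp, score 13.14). Near the gene start, 1 peak had the same bounds in both lists, 31721843 to 31721942, with scores of 14.34 in the knockdown list and 11.50 in the control list. The highest control peak on the gene, from 31722193 to 31722342 (150 bp, score 19.95), stood over 2 narrower knockdown peaks of 25 and 75 bp (scores 16.52 and 17.60).

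A 50 bp knockdown peak on BCL2L1, from 31684375 to 31684424, had no counterpart on its strand. It scored 11.53 and also lies in the span of BCL2L1-AS1. A 2287 bp control peak from 31719406 to 31721692 (score 12.81) and a control peak on the plus strand also had none on their strands. Both of these control peaks overlapped knockdown peaks on the other strand. The plus strand, opposite to the gene, held 2 knockdown and 3 control peaks within 2307 bp of the start of the gene span. The gene annotation used here lists no other gene at those places. Most of these plus-strand peaks lay over minus-strand peaks of the same list, so the gene's peak numbers can count a place more than once. On the strand of the gene BCL2L1 had 5 knockdown and 4 control peaks.

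MCL1, a short-lived survival protein (chromosome 1, 150574558 to 150579610), had 1 knockdown and 3 control peaks, all on the minus strand. The knockdown peak ran from 150576956 to 150577080 (125 bp, score 10.60) and covered a control peak from 150577031 to 150577080 (50 bp, score 10.88). The 2 further control peaks were 25 bp wide (score 10.69), 101 bp from the knockdown peak, and 150 bp wide, from 150578306 to 150578455 (score 13.95), 1226 bp from it. Of the 1169 protein-coding genes with exactly 3 control peaks, 36.2% had 1 or no knockdown peak.

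**Figure D3:**
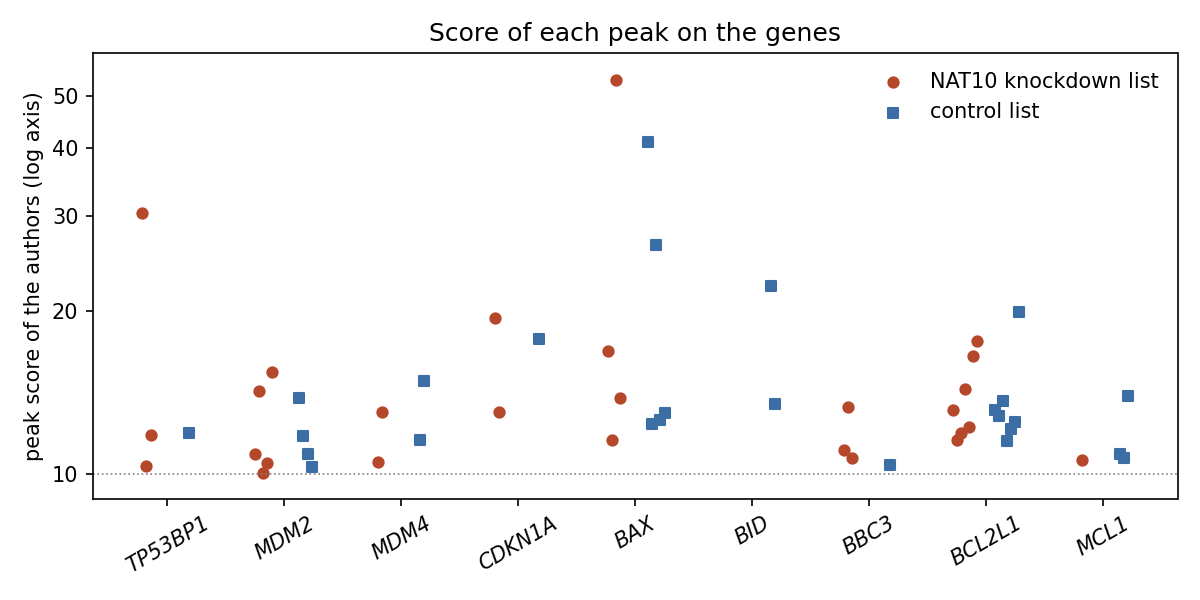
Score of every peak on the 9 genes (y axis, the authors' score on a log axis), 1 point per peak, knockdown list as red circles and control list as blue squares, with the dotted line at the lower edge of 10. BAX holds the highest point of each list, 53.42 in the knockdown list and 41.15 in the control list, and most other points lie between 10 and 20.

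A grouping by role was not fixed beforehand. Counting either strand, the genes that restrain or bind p53 (MDM2, MDM4 and TP53BP1) had as many or more knockdown peaks as control peaks. On the strand of the gene, however, MDM4 had 1 knockdown and 2 control peaks. Of the p53 targets named above, MDM2, CDKN1A and BBC3 had more knockdown peaks and BAX fewer. The death-promoting genes divided, with more on BBC3 and fewer on BAX and BID. Of the survival genes BCL2L1 had equal numbers and MCL1 fewer. Most of these differences were 1 or 2 peaks, and with 1 list per arm there is no spread between replicates to set them against.

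Many peaks on these genes recurred. A control peak on the same strand overlapped 17 of the 27 knockdown peaks (63.0%, 95% Wilson interval 44.2 to 78.5). Conversely, 16 of the 26 control peaks were met by a knockdown peak (61.5%, 42.5 to 77.6). On all protein-coding genes the shares were 54.9% of knockdown and 45.3% of control peaks. Both background shares lie inside the intervals. These account for counting error alone and take neighbouring peaks for independent ones, which they are not. With 50% of both peaks required to overlap, 13 of the 27 knockdown (48.1%) and 13 of the 26 control peaks recurred. With overlap on either strand allowed, 17 of the 27 knockdown (63.0%) and 18 of the 26 control peaks (69.2%) recurred. At 1 bp on the same strand, BAX gave 4 of the shared peaks in each list and BCL2L1 gave 6 knockdown and 5 control ones. TP53BP1 and BID gave none.

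**Figure D4:**
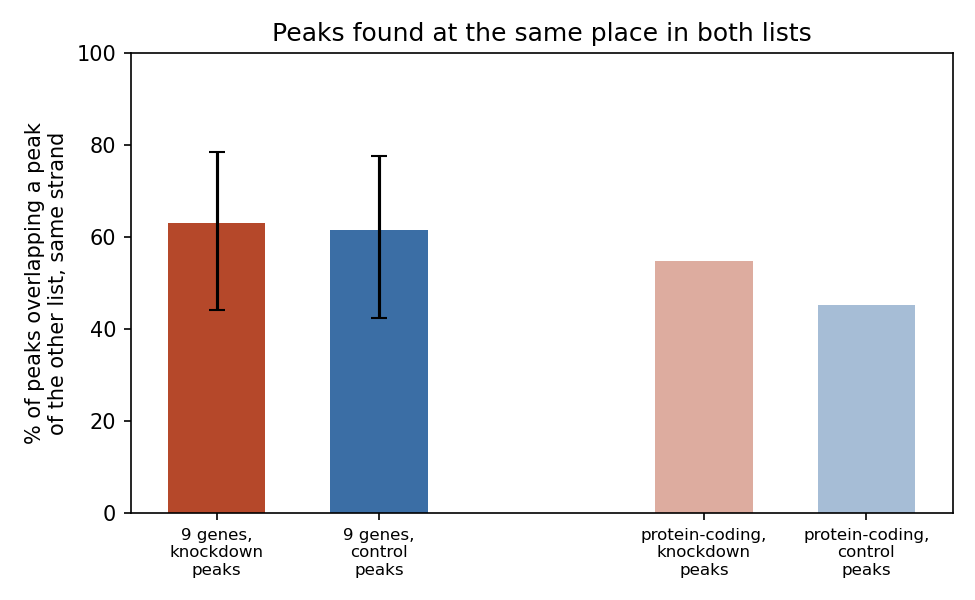
Share of peaks (y axis, percent) that overlap a peak of the other list by at least 1 bp on the same strand, for the 9 genes (full colour, with 95% Wilson intervals) and for all protein-coding genes (pale), knockdown peaks in red and control peaks in blue. The 9 genes stand at 63.0% and 61.5%, and the intervals reach down past the 54.9% and 45.3% of all protein-coding genes.

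At the median, peaks on these genes were narrower than those of the lists and had similar scores. Median width was 75 bp for the 27 knockdown peaks and 100 bp for the 26 control peaks, against 168 and 175 bp over the whole lists. A width of 25 bp was found for 7 of the 27 knockdown and 6 of the 26 control peaks, against 15.3% and 13.4% over the whole lists. Spans over 1000 bp, which can include introns, made up 6 of the 27 and 6 of the 26, against 31.4% of all knockdown and 31.0% of all control peaks. The median score was 12.99 in the knockdown list and 12.69 in the control list, with 12.37 and 12.17 over all peaks. A score of 20 or more was reached by 2 of the 27 knockdown peaks, on TP53BP1 and BAX, and by 3 of the 26 control peaks, on BAX and BID. Over the whole lists the shares were 14.9% of knockdown and 12.3% of control peaks.

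Along the genes with a known strand, 10 of 26 knockdown peaks and 9 of 23 control peaks had their midpoint in the last 25% of the gene span. The first 25% held 9 and 10. Over all protein-coding genes the last 25% held 41.5% of knockdown and 46.6% of control peaks, and the first 25% held 17.4% and 15.4%. The peaks in the first 25% were all on MDM2, BAX and BCL2L1. On the opposite strand of the gene lay 3 knockdown and 4 control peaks, against 9.29% and 9.47% of such pairs over all protein-coding genes.

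A further 4 lists of the same pathways put the 9 genes in context. Of all 20050 protein-coding genes 54.4% had a peak in either list, and of those 33.3% had more and 46.1% fewer knockdown peaks. Each list below is short and is given as counts to be read beside these shares. Among 16 other BCL2 family genes, both lists had peaks on 5, the knockdown list alone on 1 (PMAIP1, a BH3-only p53 target) and neither list on 10. The 3 with more knockdown peaks were BAK1, the second pore former, with 5 knockdown and 2 control peaks, BCL2L12 with 5 and 3, and PMAIP1 with 1 and 0. BCL2 itself, with 1 and 2, was the 1 with fewer. These 4 were named after their values were seen.

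Of 29 other p53 target genes, 19 had a peak, 11 of them with more knockdown peaks and 5 with fewer. The median difference was 1 peak, against 0 over all protein-coding genes with a peak and 0 over the 9 genes. This list was chosen with earlier results known and no test was run. The difference is therefore not read as a trait of p53 targets. FAS, a death receptor, and ZMAT3, an RNA-binding p53 target, each had 5 knockdown peaks and 1 control peak, and FDXR, a mitochondrial reductase, had 4 and 0. FBXW7, a ubiquitin ligase subunit, went the other way with 3 and 11. Of 26 other regulators of p53, 24 had a peak, 9 with more and 12 with fewer knockdown peaks, near the shares over all genes. EP300, an acetyltransferase, had 7 knockdown and 3 control peaks, and its relative CREBBP had 10 and 16. HUWE1, a large ubiquitin ligase, had 16 and 25, and HIPK2, a kinase, had 8 and 16.

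Of 21 genes that act downstream in apoptosis, 16 had a peak, 6 with more and 5 with fewer knockdown peaks. BIRC6 and XIAP, both inhibitors of apoptosis, had 7 and 1 knockdown peaks against 17 and 5 control peaks. DIABLO, which counters such inhibitors, and VDAC1, a channel of the outer mitochondrial membrane, each had 2 knockdown peaks and 0 control peaks. Peaks in the knockdown list only were found on 5 of the 15 genes with a knockdown peak, against 17.4% of 8429 protein-coding genes, the others being AIFM1, APAF1 and CFLAR with 1 each, and FADD was the 1 with a control peak only. The last 4 were named after their values were seen.

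**Figure D5:**
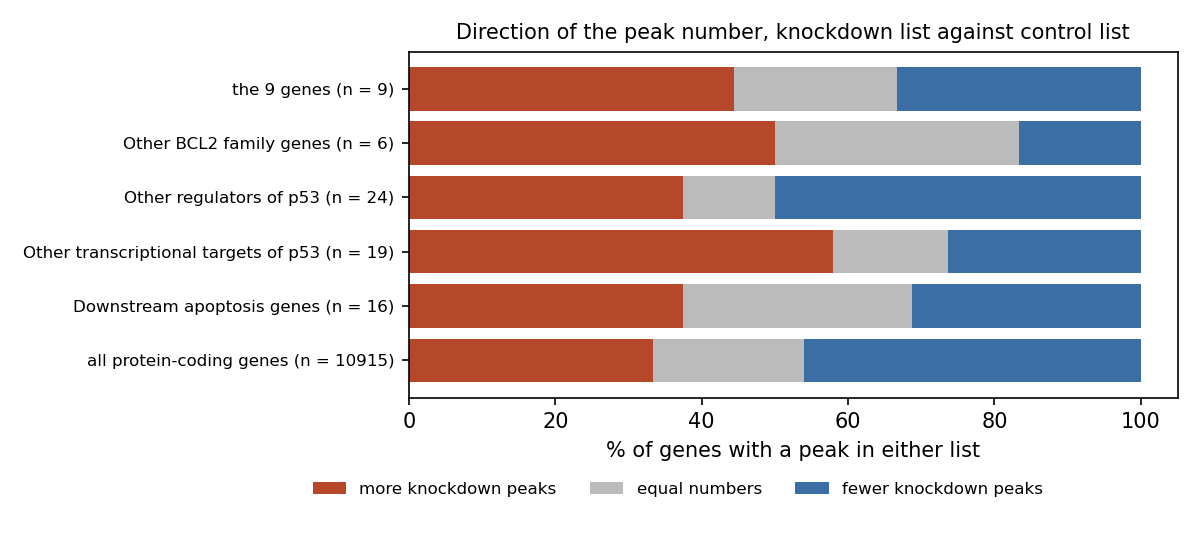
Share of genes with a peak in either list (x axis, percent) that had more (red), equal (grey) or fewer (blue) peaks in the knockdown list than in the control list, for the 9 genes, the 4 further lists and all protein-coding genes, with the number of genes in brackets. More knockdown peaks were found on 4 of the 9 genes and on 11 of the 19 other p53 targets, against 33.3% of all protein-coding genes. The lists were chosen with earlier results known, and no test was run.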

How the data were processed

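The reads were processed with fastp 0.20.1 and Bowtie2 2.4.1 on hg38, per the submitters' processing notes. The sources used here do not say how peaks were called, with which threshold and inputs, or whether on pooled replicates. The labels give polyA RNA as the molecule while the protocol says total RNA, so which RNA was used is uncertain. What the authors deposited was 1 list per arm, with a score per peak on an unstated scale and no blocks within a peak, so a wide span can include introns. Peak starts were made 1-based.

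Peaks were assigned to the gene spans of RefSeq (GRCh38.p14), on either strand, by at least 1 bp. Gene strands came from the RefSeq promoter windows, which held 8 of the 9 genes. Peaks of the lists were matched by at least 1 bp on the same strand. Overlapping and antisense genes are uncertain, since use of strand upstream is not stated. Both overlap steps were run on simulated data, with 200 of 200 genes and 2000 of 2000 shifted peaks recovered. The simulated peaks were single bases inside a gene, or copies shifted by less than their width. Peaks that cross a gene edge and overlapping genes were therefore not tested.

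The members and gene lists were chosen with earlier results of these data known. Named genes were the 9 members and, per further list, up to 4 genes that differed by at least 4 peaks or had at least 2 peaks in 1 list and 0 in the other. Genes named outside this rule are said to be so where they appear, or are neighbours and markers. Python 3.11.15, NumPy 2.4.6, pandas 2.3.3, SciPy 1.17.1 and matplotlib 3.10.9 were used. Alternatives covered gene assignment, strand, width, score, list length, merging and the overlap that counts as shared.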

Additional observations from a re-analysis of the deposited data

How the results depend on the processing

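No paired analysis was possible because each arm has 1 list with no replicates. Of the 60 recomputed summary values (members with more or fewer knockdown peaks, members with a control peak only, peak totals and shares of recurring peaks), 55 stayed within 1.5 times the count, or within the interval of the share, and 5 moved. Some settings left the peaks unchanged. A score of 10 or more removed no member peak, because the lowest member scores were 10.02 (knockdown) and 10.3 (control). Merging overlapping peaks, or requiring a set part of each peak to lie within the gene span, also returned the main values throughout. No setting joined peaks of a list that a short gap separates, so the dependence of the counts on such splits was not tested. The 55, and the unchanged differences among the 71 below, include these settings and so overstate stability. With only peaks that overlap no other gene, 5 genes in place of 3 had fewer knockdown peaks. MDM4 (1 and 2) and BCL2L1 (6 and 7) were added. With a score of 20 or more, 2 knockdown and 3 control peaks were left, 1 gene (TP53BP1) had more knockdown peaks, and 33.3% of the control peaks recurred. Fewer peaks pass that threshold, so these values rest on BAX, BID and TP53BP1 alone. No gene with unequal numbers changed sign under the settings run, but 18 of 71 differences changed in size, some to 0. BCL2L1, with equal numbers, differed by -1 without peaks in other genes and by 1 on its own strand (5 and 4) or up to 1000 bp (6 and 5), and MDM4 by -1 under the first 2 of these. The setting on the strand of the gene left out MCL1. Depth is unknown and peaks near a score of 10 are the least certain.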

Other observations

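Just upstream of CDKN1A lies PANDAR, a long noncoding RNA gene known as a p53 target (chromosome 6, 36673621 to 36675126). It was looked at after its values were seen. The knockdown list had 2 peaks there, 150 bp on the plus strand from 36674767 to 36674916 (score 24.26) and 175 bp on the minus strand from 36674796 to 36674970 (score 19.09). The control list had 1, 175 bp on the plus strand from 36674942 to 36675116 (score 22.55). The plus-strand peaks of the lists did not overlap, and all 3 also lie in the pseudogene LAP3P2, so their assignment is uncertain. DINOL, the noncoding RNA gene at the CDKN1A start, had 0 peaks in both lists.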
